A study of Mus musculus with 8 samples.

Results

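Clu, Selp, Vwf, Nupr1, Aldh1a1, Neo1, Gda, Ehd3 and Mt1 are genes known to rise in the HSCs of old mice, and Enpp5 was added to them. These 10 genes were picked by symbol from 54835 annotated genes and were followed gene by gene. The 8 RNA-seq libraries came from cells sorted as LT-HSCs, the HSCs that can rebuild the blood over a long term. The series compared asrij floxed and asrij KO mice. It holds no library from an old mouse, so a rise with age cannot be checked in it, and the name old-HSC gene rests on background knowledge. The 10 genes were chosen with results of the same libraries known. The difference between the genotypes is therefore given for them as a description, without a p-value. Where members past a threshold are counted, the share of all genes past it stands beside the count and nothing is read from it. Nothing is read from the counts in the lists below either, since those were also chosen with earlier results of these data known.

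The 4 floxed libraries (replicates 1, 3, 4 and 5) came from mice homozygous for the asrij floxed allele, and the 4 KO libraries (replicates 2, 3, 4 and 5) from whole-body asrij knockout mice, each library from an independent mouse. asrij is the mouse gene Ociad1. The labels give bone marrow as the tissue and 6 months as the age of all the mice, and the methods give both sexes. No Cre line or driving promoter is named for either group. The sort for the RNA-seq is written in the methods as LSK CD150+ CD48+, whereas other experiments of the same study use CD150+ CD48-.

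An old HSC pool is larger than a young one, contributes less to lymphoid blood and more to myeloid cells and platelets, and carries surface and secreted proteins that young HSCs show little of. Several of the proteins studied here also belong to other cells of the marrow. P-selectin and von Willebrand factor are stored in the granules of platelets, megakaryocytes and endothelial cells, clusterin is a platelet granule protein too, and ALDH1A1 is found in red blood cells.

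Ociad1, the targeted gene, stood at 31.3 to 66.9 CPM in the floxed libraries and at 11.7 to 19.7 CPM in the KO libraries (log2 fold change -1.58, SE 0.27, edgeR adjusted p = 0.0249). CPM are counts scaled to the size of the library after TMM normalization. Gene counts per library ran from 23416461 to 44883130. Floxed replicate 3 stood apart: 34412 genes had at least 1 count in it and 28213 to 29747 in the other 7 libraries, its neutrophil markers summed to 15465 CPM against 42506 to 48380 CPM in the rest of the floxed group, and its stromal markers to 185 CPM against 63.6 to 64.6 CPM. Many results are therefore given with and without it. The log2 fold change of Ociad1 was -1.29 without it (SE 0.20, edgeR adjusted p = 0.0040), which is short of 1.5 in size. Of 10 HSC markers, 9 passed the filter on low counts and 0 differed by the edgeR test over 8 libraries, against 2.97% of all genes. Without floxed replicate 3, 1 of them (Slamf1) was higher in KO, against 8.9% of all genes. The markers summed to 86.7 to 94.4 CPM in floxed and 78.6 to 94.2 CPM in KO. Hoxb5 (0 to 0.256 CPM), Procr (0.142 to 0.962 CPM) and Fgd5 (0.158 to 1.09 CPM), which define LT-HSCs, were near 0. Of the other markers, Mecom, Ctnnal1 and Slamf1 stood at 0.498 to 4.41 CPM. Ly6a (4.29 to 15.2 CPM), Hlf (5.0 to 10.6 CPM) and Meis1 (6.09 to 12.0 CPM) were higher, and Kit was the highest (46.8 to 60.1 CPM). Haemoglobin genes took 2.85% to 7.67% of the gene counts in floxed and 12.2% to 24.3% in KO. The neutrophil marker S100a9 stood at 4750 to 13082 CPM in floxed and 5064 to 9544 CPM in KO. The levels below are those of all cells in a library, and the share that came from HSCs was not tested. In such bulk libraries, fewer cells of a type and less RNA per cell cannot be told apart.

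All 10 genes passed the filter. Clu was the 1 member past both thresholds of the study (adjusted p under 0.05 and absolute log2 fold change above 1.5), against 1.19% of the 21919 genes tested (0.452% higher in KO and 0.739% lower). Clu and Enpp5 were the 2 members with an adjusted p under 0.05, against 2.97% of all genes (1.22% higher and 1.75% lower). Clu kept such a p in all 8 fits with a library left out. Enpp5 kept it in 3 of these fits, those without floxed replicate 3, 4 or 5. Over the 8 fits, 59 to 3876 of all genes had one. With the replicate number as a block, on the 3 numbers that both genotypes have, 0 members had such a p, against 0.222% of all genes (48 in number), while the log2 fold changes of Clu (2.13) and Enpp5 (-1.14) stayed close to those without the block. In 2 members the KO and floxed libraries did not overlap (14.8% of all genes), Clu with every KO library above (7.1% of all genes) and Enpp5 with every one below (7.67%), and in the other 8 they did. The median log2 fold change of the members was 0.10, with 7 above 0 and 3 below, beside a median of -0.01 over all genes tested. Nothing is read from these shares, or from how often a member kept such a p, since the members were picked with this contrast in view.

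**Figure D1:**
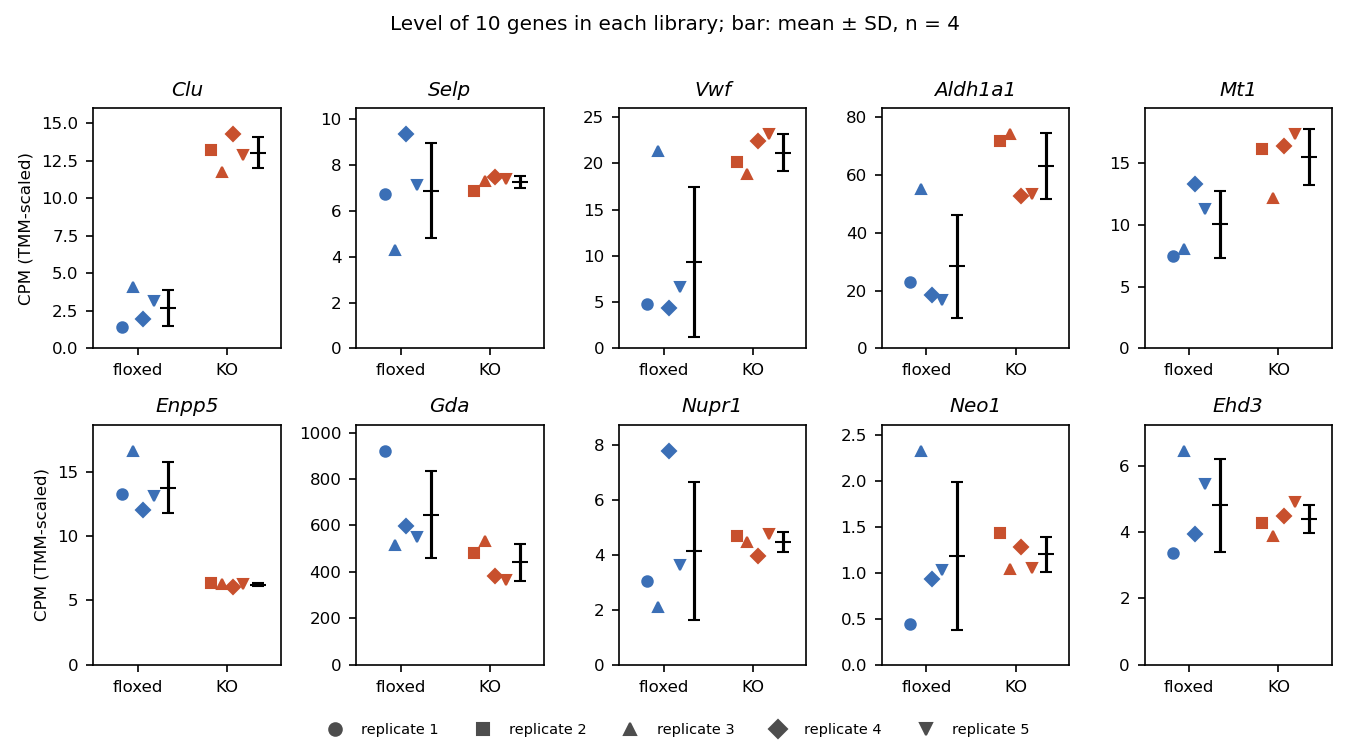
Level of each of the 10 genes in CPM (y axes, from 0 and scaled per gene) in the 4 floxed (blue) and 4 KO (orange) libraries, with symbols for the replicate number and bars for the mean ± SD. Clu separates upwards and Enpp5 downwards in every KO library, while Vwf and Aldh1a1 separate from all floxed libraries other than replicate 3 (upward triangle).

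Clu encodes clusterin, a secreted chaperone that is also packed into platelet granules. The gene lies at chr14:65968483-65981547 (GRCm38, plus strand) and its counted transcript has 9 exons. It stood at 1.42, 4.08, 1.96 and 3.18 CPM in floxed replicates 1, 3, 4 and 5 and at 13.2, 11.7, 14.3 and 12.9 CPM in KO replicates 2, 3, 4 and 5. Every KO library was above every floxed library, and floxed replicate 3 was the highest of its group. The level in KO was 4.87 times that in floxed (log2 fold change 2.28, SE 0.32), and 6.03 times without floxed replicate 3. Its log2 fold change lay between 2.10 and 2.59 when any 1 library was removed.

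Of the clusterin receptors and partners listed, Lrp8, which encodes a receptor of the LDL family, fell from 30.3 to 35.3 CPM in floxed to 19.6 to 22.3 CPM in KO (log2 fold change -0.63, SE 0.13, edgeR adjusted p = 0.0416). That call was lost under the block (log2 fold change -0.54, adjusted p = 0.175, edgeR) and held in 1 of the 8 fits with a library left out, the one without floxed replicate 3. Vldlr and Trem2 had log2 fold changes of -0.20 (SE 0.41) and 0.05 (SE 0.38). Lrp2 was below the filter.

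Selp encodes P-selectin, the adhesion receptor that platelets and endothelial cells bring to their surface on activation. It stood at 6.75, 4.31, 9.35 and 7.13 CPM in the floxed libraries and at 6.87, 7.31, 7.49 and 7.39 CPM in the KO libraries. The groups overlapped, with both the lowest and the highest of the 8 values in floxed and the KO libraries within a narrow band (log2 fold change 0.08, SE 0.24). The counted Selp transcript (chr1:164115264-164150026) runs across 2 genes on the other strand, Gm16548, with 1175 counts, and Gm16587, with 302 counts, against 1854 for Selp. Whether the counts take reads of both strands was not tested, so reads of these 2 genes may be part of the Selp count. The last 5.31 kb of Selp, which overlap both and hold 34.9% of its exon bases, carried 47.8% to 61.8% of its counts. A stretch of Selp clear of other genes held 11 to 43 counts per library and gave a log2 fold change of -0.58 (SE 0.49). With so few counts, its SE is too large to set it apart from the value for the whole gene. Since reads of the 2 genes on the other strand may be in the count, the small value for the whole gene says little about P-selectin RNA.

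Vwf encodes von Willebrand factor, the large blood protein that tethers platelets to damaged vessels, and its RNA marks the platelet-primed share of HSCs. It stood at 4.80, 21.4, 4.38 and 6.67 CPM in the floxed libraries. In the KO libraries it stood at 20.2, 18.8, 22.4 and 23.2 CPM. Floxed replicate 3 lay among the KO libraries and the other 3 floxed libraries lay below all of them. The log2 fold change was 1.17 (SE 0.47) over 8 libraries and 2.01 (SE 0.19) without floxed replicate 3, a level 4.03 times that in floxed.

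The counts of Vwf were also spread differently along its 133732 bases (chr6:125552948-125686679, plus strand). The last 37.4 kb, with 19 of the 52 exons, held 46.2%, 35.8%, 52.4% and 51.7% of the Vwf counts in the floxed libraries and 69.9%, 69.3%, 62.4% and 69.0% in the KO libraries. Every KO library had the larger share at that end. The first 51.8 kb held 22.3% to 29.1% in floxed and 12.3% to 18.2% in KO, and the groups were apart there too. In a stretch of 39.4 kb between them, which overlaps the first, floxed replicate 3 had 32.7% of its Vwf counts, floxed replicates 1, 4 and 5 had 13.6% to 14.3%, and the KO libraries had 7.67% to 11.6%. As a level, the last 37.4 kb stood at 2.21, 7.64, 2.30 and 3.45 CPM in floxed and at 14.1, 13.0, 14.0 and 16.0 CPM in KO, so that at this end floxed replicate 3 no longer lay among the KO libraries. These shares were looked at after the levels and have no test, and what sets them was not tested.

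**Figure D2:**
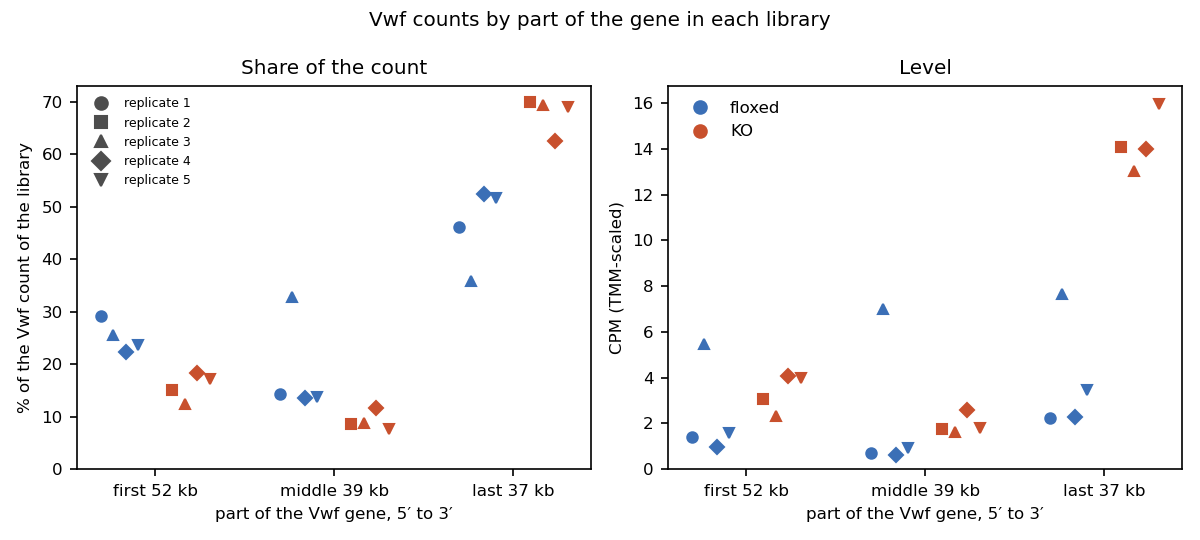
Vwf counts in 3 stretches of the gene from 5′ to 3′, as a share of the Vwf count of each library (left) and in CPM (right), with symbols for the replicate number. The KO libraries hold 62.4% to 69.9% of their counts in the last stretch and the floxed libraries 35.8% to 52.4%, and floxed replicate 3 stands out in the middle stretch.

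The partners of Vwf and Selp listed for this report include 4 genes of the platelet receptor for von Willebrand factor. Of these, 3 were higher in KO by the edgeR test, against 1.22% of all genes. With the replicate number as a block 0 of the 4 passed, against 0.222% of all genes. Gp5 went from 1.79 to 5.37 CPM in floxed to 15.6 to 37.9 CPM in KO (log2 fold change 2.76, SE 0.40, edgeR adjusted p = 0.0156). Gp1ba had a log2 fold change of 1.58 (SE 0.27, edgeR adjusted p = 0.0258) and Gp9 one of 2.0 (SE 0.44, edgeR adjusted p = 0.0440). The other subunit gene, Gp1bb, stood at 16.0 to 99.7 CPM in floxed and 40.0 to 97.3 CPM in KO (log2 fold change 0.24, SE 0.53) and did not pass. Under the block the log2 fold changes were 2.66 for Gp5 (edgeR adjusted p = 0.0508), 1.64 for Gp1ba (0.0945) and 1.82 for Gp9 (0.114). Gp5 kept its call in 7 of the 8 fits with a library left out (not without KO replicate 5), Gp1ba in 2 (without floxed replicate 3 or KO replicate 2) and Gp9 in 1 (without floxed replicate 3). Adamts13, the protease that trims von Willebrand factor, had a log2 fold change of -0.48 (SE 0.24). Sele, which encodes E-selectin, and Selplg, the gene of the ligand of P-selectin, did not pass either (log2 fold changes -0.92 and -0.28).

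Clu, Vwf and Selp can be set beside markers of the other cells that make these proteins. Selp overlapped between the groups, at 4.31 to 9.35 CPM in floxed and 6.87 to 7.49 CPM in KO (log2 fold change 0.08, SE 0.24). Of 8 megakaryocyte and platelet markers, all but Tubb1 (7) were higher in KO by the edgeR test and 0 were lower, against 1.22% of all genes higher. Under the block 1 of them (Pf4) was, against 0.222% of all genes in either direction. Without floxed replicate 3 all 8 were, against 8.9% of all genes higher. Their summed level was 33.9 to 79.3 CPM in floxed, with floxed replicate 3 at 79.3 and the others up to 38.0, and 186 to 194 CPM in KO. None was at 0 in any library, and Gp9, Gp1ba and Itga2b stand both there and among the genes named in this report. Of 8 endothelial markers, 0 passed the edgeR test in either direction (smallest adjusted p = 0.0592), against 2.97% of all genes. Without floxed replicate 3, 4 were higher, against 8.9% of all genes, and under the block 0 passed, against 0.222%. Their summed level was 49.3 to 68.6 CPM in floxed and 74.6 to 88.8 CPM in KO, with Cdh5 at 3.23 to 3.56 and 3.59 to 6.81 CPM. The part of these cells in the levels of Clu, Vwf and Selp was not tested.

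Aldh1a1 encodes a retinaldehyde dehydrogenase, which makes retinoic acid and clears aldehydes. It stood at 23.1, 55.0, 18.5 and 16.7 CPM in the floxed libraries. In the KO libraries it stood at 71.7, 74.1, 52.7 and 53.5 CPM. As with Vwf, floxed replicate 3 lay within the KO range, and the other 3 floxed libraries lay below it. The log2 fold change was 1.15 (SE 0.36), and 1.71 (SE 0.19) without floxed replicate 3, when the level in KO was 3.26 times that in floxed. The 10 erythroid markers summed to 27637 to 69813 CPM in floxed, with floxed replicate 3 at the top, and to 121800 to 294680 CPM in KO, and 3 of the 10 (Klf1, Hba-a1 and Hbb-bt) were higher in KO by the edgeR test and 0 lower, against 1.22% of all genes higher. Under the block 0 of the 10 passed, against 0.222% of all genes, and without floxed replicate 3 all 10 were higher, against 8.9%. Their part in the level of Aldh1a1 was not tested.

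The annotation gives Aldh1a1 a near and a far start. Transcripts that lie wholly in the first part, from the far start (chr19:20492715-20556410), held 0 to 10 counts per library, while the transcript from the near start (chr19:20601961-20643462, plus strand, 13 exons) held 436 to 2908. A transcript from the far start that runs past the near one, to position 20620071, held 48 to 672, and its count cannot be split between the starts. The 250 bases before each start are shown, from RefSeq (GRCm38.p6), with GATA sites in capitals (AGATAA or TGATAA on either strand). Such a site stands in the near window and none in the far one, and 16.6% of 32851 promoters of this length have at least 1.
Aldh1a1 near start, chr19:20601718-20601967: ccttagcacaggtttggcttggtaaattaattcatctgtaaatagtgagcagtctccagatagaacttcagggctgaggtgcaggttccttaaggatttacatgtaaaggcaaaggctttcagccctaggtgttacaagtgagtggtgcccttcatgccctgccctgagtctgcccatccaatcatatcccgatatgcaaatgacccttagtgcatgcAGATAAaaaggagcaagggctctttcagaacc
Aldh1a1 far start, chr19:20492333-20492582: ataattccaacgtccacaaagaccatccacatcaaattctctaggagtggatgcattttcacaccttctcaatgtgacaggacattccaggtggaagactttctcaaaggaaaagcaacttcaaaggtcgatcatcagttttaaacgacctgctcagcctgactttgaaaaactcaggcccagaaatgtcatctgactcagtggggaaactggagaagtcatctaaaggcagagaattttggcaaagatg

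The close relative Aldh1a7 shares 7.53% of the 50-base stretches of the Aldh1a1 transcript, so reads of the pair can be split only in part. Aldh1a7 stood at 1.26 to 5.24 CPM in floxed and 3.66 to 6.47 CPM in KO (log2 fold change 0.91, SE 0.40) and did not pass the test over 8 libraries. Without floxed replicate 3 it passed (edgeR adjusted p = 0.0154), and over the other alternatives its adjusted p reached 0.430. The receptor gene Rara and the retinol dehydrogenase gene Rdh10 had log2 fold changes of -0.32 (SE 0.35) and -0.09 (SE 0.18).

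Mt1 encodes metallothionein 1, a small protein that binds zinc and other metals (chr8:94179082-94180327, plus strand, 3 exons). It stood at 7.51, 8.0, 13.3 and 11.3 CPM in the floxed libraries and at 16.1, 12.1, 16.4 and 17.3 CPM in the KO libraries. The groups overlapped by 1 library on each side, since KO replicate 3 lay below floxed replicate 4. The level in KO was 1.55 times that in floxed (log2 fold change 0.63, SE 0.22), and 1.46 times without floxed replicate 3.

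Mt2, the neighbour of Mt1 on chromosome 8, stood at 0.975 to 3.27 CPM in floxed and 5.07 to 6.25 CPM in KO, with no overlap (log2 fold change 1.56, SE 0.35, edgeR adjusted p = 0.0486). With the replicate number as a block the log2 fold change was 1.37 and the call was lost (adjusted p = 0.141, edgeR) and in 7 of the 8 fits with a library left out. Without floxed replicate 3 it held (edgeR adjusted p = 0.0015). The annotation also has Gm45774 there, with 877 counts against 1030 for Mt2 and 45.5% of the 50-base stretches of Mt2 in common, so the 2 cannot be told apart. Mtf1, the zinc sensor that switches on both metallothionein genes, had a log2 fold change of -0.07 (SE 0.12) and Slc30a1, a zinc exporter under the same sensor, one of 0.29 (SE 0.20), neither past the test.

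Mt1 and Mt2 are the members of one family with neighbouring promoters, so their 250 bases before the RefSeq start (GRCm38.p6) are shown, with the core of the metal response element in capitals (TGCACNC or TGCGCNC on either strand). The Mt1 window holds 1 core and the Mt2 window 3. Of 32851 promoters of this length, 21.4% hold at least 1 and 1.26% at least 3. A shorter Mt1 transcript, from position 94179211 inside the gene, had 96.9% to 100% of the Mt1 count in every library. How reads that cross its edge were counted is not known, so this share does not show where transcription starts. The Mt1 window ends before the annotated start at 94179089, and neither window is shown to be the promoter in use.
Mt1, chr8:94178839-94179088: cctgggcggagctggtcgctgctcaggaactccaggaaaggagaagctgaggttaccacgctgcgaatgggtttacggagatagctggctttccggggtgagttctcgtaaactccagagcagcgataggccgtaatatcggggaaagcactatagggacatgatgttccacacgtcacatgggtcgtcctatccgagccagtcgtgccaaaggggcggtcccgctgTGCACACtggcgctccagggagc
Mt2, chr8:94172368-94172617: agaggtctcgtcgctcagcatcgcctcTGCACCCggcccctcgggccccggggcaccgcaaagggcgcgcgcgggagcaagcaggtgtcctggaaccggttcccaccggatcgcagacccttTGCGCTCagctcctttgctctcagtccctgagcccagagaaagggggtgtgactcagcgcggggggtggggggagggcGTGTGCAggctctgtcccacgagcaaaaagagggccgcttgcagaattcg

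Enpp5 belongs to the ectonucleotide pyrophosphatase and phosphodiesterase family of membrane enzymes (chr17:44078845-44086559, plus strand, 4 exons). It stood at 13.2, 16.6, 12.0 and 13.1 CPM in the floxed libraries and at 6.33, 6.27, 6.03 and 6.27 CPM in the KO libraries. All 4 KO libraries lay below all 4 floxed ones, and the KO values were close to each other. The level in floxed was 2.21 times that in KO (log2 fold change -1.14, SE 0.16) and the log2 fold change stayed between -1.20 and -1.03 with each library left out. The 6 other family members listed, of which Enpp7 was below the filter, gave no call over 8 libraries. Enpp4, the nearest in level, stood at 13.2 to 36.2 CPM in floxed and 12.8 to 13.4 CPM in KO (log2 fold change -0.65, SE 0.30). Enpp3 passed without floxed replicate 3 (log2 fold change 1.87 against 0.55, edgeR adjusted p = 0.0371, and up to 0.883 over the other alternatives).

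Gda encodes guanine deaminase, which turns guanine into xanthine in purine breakdown (chr19:21391307-21472672, minus strand, 14 exons). It stood at 922, 517, 599 and 551 CPM in the floxed libraries and at 482, 533, 383 and 367 CPM in the KO libraries. The groups overlapped at KO replicate 3 and floxed replicate 3, and floxed replicate 1 was far above the rest. The log2 fold change was -0.55 (SE 0.24), and -0.31 at its smallest with a library left out. The other purine enzymes listed did not pass: Xdh, the next step after Gda, had a log2 fold change of -0.66 (SE 0.21), Ada one of -0.48 (SE 0.23), Hprt one of 0.10 (SE 0.22) and Pnp one of 0.88 (SE 0.31). Without floxed replicate 3, Xdh (-0.80, edgeR adjusted p = 0.0063) and Pnp (0.62, edgeR adjusted p = 0.0048) passed, and over the other alternatives their adjusted p reached 0.325 and 0.292. Pnp has 52945 counts and overlaps Gm49342 with 44711, which cannot be told apart. Neutrophil markers, 7 in all, summed to 15465 CPM in floxed replicate 3, to 42506 to 48380 CPM in the other floxed libraries and to 23045 to 29515 CPM in KO. Over 8 libraries 0 of them passed the edgeR test, against 2.97% of all genes, and 0 under the block, against 0.222%. Without floxed replicate 3, 3 were lower in KO (Mpo, Ngp and Ltf) and 0 higher, against 8.63% and 8.9% of all genes. Their part in the level of Gda was not tested.

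Nupr1 encodes a small nuclear protein made under stress (chr7:126623252-126627010, minus strand). It stood at 3.03, 2.12, 7.78 and 3.64 CPM in the floxed libraries and at 4.69, 4.47, 3.97 and 4.75 CPM in the KO libraries, all of them inside the floxed range. Floxed replicate 4 was the highest and floxed replicate 3 the lowest. The log2 fold change of 0.12 (SE 0.37) went to -0.10 without floxed replicate 3 and to 0.62 at the most with a library left out. The stress genes listed beside it, Atf4, Ddit3 and Trib3, had log2 fold changes of 0.46 (SE 0.18), 0.48 (SE 0.15) and 0.58 (SE 0.40), none past the test.

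Neo1 encodes neogenin, a receptor for netrins and repulsive guidance molecules (chr9:58874687-59036441, minus strand, 29 exons). It was the least read of the 10, with 350 counts in all, and stood at 0.448, 2.33, 0.935 and 1.03 CPM in the floxed libraries. In the KO libraries it stood at 1.43, 1.04, 1.28 and 1.05 CPM. Every KO library was above floxed replicates 1, 4 and 5 and below floxed replicate 3, and the closest values differed by less than the spread among KO libraries. The log2 fold change was 0.01 (SE 0.47), and 0.60 (SE 0.38) without floxed replicate 3. In floxed replicate 1 the gene had 17 counts, of which 12 fell in a stretch with 3.37% of its 161755 bases, while that stretch held 1 to 4 counts in every other library. The netrin gene Ntn4 was also highest in floxed replicate 3, at 17.8 CPM against 4.89 to 6.30 CPM in the other floxed libraries, and stood at 7.20 to 9.27 CPM in KO. Its log2 fold change was 0.01 (SE 0.40), and without floxed replicate 3 it was 0.67 (edgeR adjusted p = 0.0297, and up to 0.999 over the other alternatives). Rgmb, whose protein binds neogenin, passed without floxed replicate 3 (log2 fold change -0.87 against -0.72, edgeR adjusted p = 0.0308, and up to 0.460 over the other alternatives), and Rgma was below the filter. The antisense gene Gm47271 lies inside Neo1 and had 23 counts.

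Ehd3 encodes a membrane-shaping ATPase of endosome recycling (chr17:73804841-73832094, plus strand, 6 exons). It stood at 3.37, 6.45, 3.95 and 5.44 CPM in the floxed libraries and at 4.28, 3.87, 4.47 and 4.89 CPM in the KO libraries. All KO libraries lay inside the floxed range (log2 fold change -0.14, SE 0.25, and 0.05 without floxed replicate 3). Its relatives Ehd1, Ehd2 and Ehd4 had log2 fold changes of -0.15 (SE 0.31), 0.48 (SE 0.29) and -0.26 (SE 0.12), none past the test over 8 libraries. Without floxed replicate 3 Ehd2 passed (0.88, edgeR adjusted p = 0.0105, and up to 0.601 over the other alternatives).

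**Figure D3:**
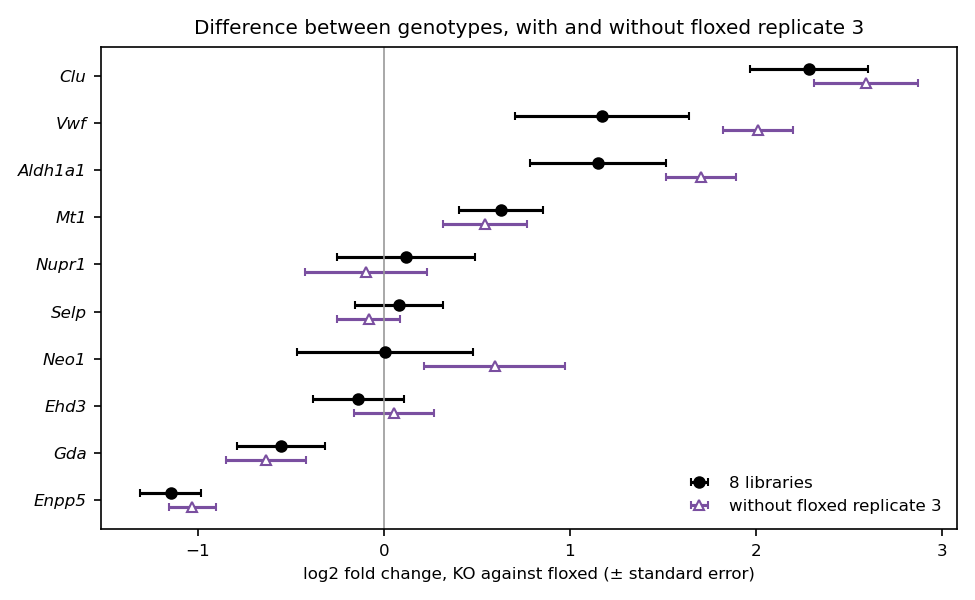
Log2 fold change of each gene, KO against floxed, with its standard error (x axis), over 8 libraries (black circles) and without floxed replicate 3 (open triangles). Vwf moves from 1.17 to 2.01 and Aldh1a1 from 1.15 to 1.71, while Clu and Enpp5 stay far from 0 in both.

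Floxed replicate 3 was the highest floxed library in 6 of the 10 genes (Clu, Vwf, Enpp5, Aldh1a1, Neo1 and Ehd3) and the lowest in 3 (Selp, Nupr1 and Gda). With it set aside, every KO library was above every remaining floxed library in 4 genes, Clu, Vwf, Aldh1a1 and Neo1, and in 15.2% of all genes. The number of members with an adjusted p under 0.05 went from 2 to 4, with Vwf and Aldh1a1 beside Clu and Enpp5, and the share of all genes from 2.97% to 17.5%. Across all genes, the KO libraries numbered 4 and 5 sat apart from those numbered 2 and 3. The chi-square per degree of freedom between 2 libraries was 109 to 169 across this split and 11.1 and 17.0 within it. In floxed, replicate 1 was nearer to replicates 4 (82.3) and 5 (103) than to replicate 3 (242). Floxed replicates 1 and 3 were thus no close pair. Within numbers 4 and 5, the log2 difference between genotypes was 2.42 for Clu, 2.06 for Vwf, 1.59 for Aldh1a1 and -1.03 for Enpp5, and within numbers 1 to 3 it was 2.34, 0.94, 1.03 and -1.23. With only 2 libraries of a genotype on each side, these have no test. With the split as a term over all 8 libraries, 4 members (Clu, Enpp5, Aldh1a1 and Mt1) had an adjusted p under 0.05, against 18.6% of all genes, and the log2 fold changes were 1.24 (SE 0.25) for Aldh1a1 and 0.66 (SE 0.15) for Mt1.

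Levels can be ranked between genes per kilobase of the counted spliced transcript, although the counts include introns. In floxed, the order was Gda (119 CPM per kb), Mt1 (18.2), Aldh1a1 (13.8), Enpp5 (5.43), Selp (2.0), Nupr1 (1.69), Clu (1.47), Ehd3 (1.31), Vwf (1.05) and Neo1 (0.161). From Selp to Vwf each gene overlapped the next in its library values, as did Mt1 and Aldh1a1. In KO the order was Gda (81.3 CPM per kb), Aldh1a1 (30.7), Mt1 (28.2), Clu (7.20), Enpp5 (2.46), Vwf (2.39), Selp (2.11), Nupr1 (1.83), Ehd3 (1.20) and Neo1 (0.163). There Aldh1a1 and Mt1 overlapped, as did Enpp5 with Vwf and Vwf with Selp, and the other neighbours did not. Clu stood in place 7 in floxed and in place 4 in KO.

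The gene nearest in pattern to each member was taken as the one with the smallest root mean square difference of centred log2 CPM over the 8 libraries. For Clu it was Myl9, a myosin light chain gene (0.14 on the log2 scale), at 1.87 to 4.97 CPM in floxed and 13.4 to 17.4 CPM in KO. For Vwf it was Slc2a4, which encodes a glucose transporter (0.14), and it too was at 23.4 CPM in floxed replicate 3 against 5.91 to 8.97 CPM in the other floxed libraries. For Aldh1a1 it was Rhag, a gene of the red cell membrane (0.12), at 46.9 to 198 CPM in floxed and 155 to 213 CPM in KO. For Enpp5 it was Cd209c (0.11), at 1.37 to 1.83 CPM in floxed and 0.543 to 0.639 CPM in KO. For Gda it was Fas (0.06), for Selp Brk1 (0.06), for Ehd3 Prpf40b (0.10), for Mt1 Gm13612 (0.08), for Nupr1 Gm47697 (0.13) and for Neo1 Gm11131 (0.20).

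A further list held 17 genes that are also known to rise in old HSCs. Of these, 3 were higher in KO (17.6%, against 1.22% of all genes tested), 0 were lower and 14 did not pass, with a median log2 fold change of 0.13. The list was chosen with earlier results of these data known, so nothing is read from this share. Itga2b, the integrin subunit of platelets and platelet-biased HSCs, rose from 12.6 to 18.6 CPM in floxed to 35.5 to 42.0 CPM in KO (log2 fold change 1.27, SE 0.16, edgeR adjusted p = 0.0080). Fhl1, a LIM domain protein gene, rose from 1.11 to 2.70 CPM to 4.65 to 6.27 CPM (log2 fold change 1.64, SE 0.31, edgeR adjusted p = 0.0311), and Mt2 is given above. Under the block 0 of the 17 passed, against 0.222% of all genes. The log2 fold changes were then 1.23 for Itga2b (edgeR adjusted p = 0.0881) and 1.61 for Fhl1 (0.141). Itga2b held in all 8 fits with a library left out and Fhl1 in 1, without floxed replicate 3, where Slamf1 (log2 fold change 1.44) and Cavin2 (1.76) passed as well, which is 5 of the 17 against 17.5% of all genes. Cavin2 (2041 counts) overlaps 9330175M20Rik (2795 counts), and the pair cannot be told apart. The partner gene of Itga2b, Itgb3, stood at 55.5 to 118 CPM in floxed and 85.2 to 105 CPM in KO (log2 fold change -0.01, SE 0.23). Itga2b is also a megakaryocyte marker, and the part of those cells was not tested.

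Old HSCs are known to lose lymphoid priming genes, and 10 of these were listed. None passed the edgeR test over 8 libraries in either direction, against 2.97% of all genes. DESeq2 gave 1 of the 10 an adjusted p under 0.05, and 2447 of all genes. Nothing is read from these counts. The median log2 fold change was -0.02. The 2 with the largest differences were Notch1 (-0.58, SE 0.24) and Dntt (0.57, SE 0.27), which point in opposite directions. Without floxed replicate 3, 3 were higher in KO (Dntt, Rag2 and Blnk) and 3 lower (Ikzf1, Satb1 and Notch1), against 8.9% and 8.63% of all genes. Rag2 (1733 counts) overlaps B230118H07Rik (14303 counts), and Notch1 (31010 counts) overlaps 0610009E02Rik (11062 counts), so neither can be told apart from its neighbour. In floxed replicate 3, Rag1 stood at 89.2 CPM against 24.3 to 33.5 CPM in the other floxed libraries and 30.0 to 37.7 CPM in KO. B cell markers summed to 538 CPM in floxed replicate 3, to 282 to 324 CPM in the other floxed libraries and to 478 to 525 CPM in KO. Of the 6, 1 (Cd79a) was higher in KO by the edgeR test over 8 libraries, against 1.22% of all genes. Under the block 0 passed, against 0.222%, and without floxed replicate 3 it was 5 higher and 0 lower, against 8.9% and 8.63%. The part of B cells was not tested.

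Of the 47 relatives and partners of the members, 40 were tested, 6 were below the filter and Nupr2 was not matched. Over 8 libraries 4 were higher in KO (Gp5, Gp1ba, Gp9 and Mt2), 1 was lower (Lrp8) and 35 did not pass. That is 12.5% with an adjusted p under 0.05 against 2.97% of all genes. Nothing is read from this share, as the list was chosen with earlier results of these data known. Under the block 0 passed, against 0.222% of all genes, and without floxed replicate 3 it was 10 higher and 4 lower, against 8.9% and 8.63%. The median log2 fold change was 0.07.

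**Figure D4:**
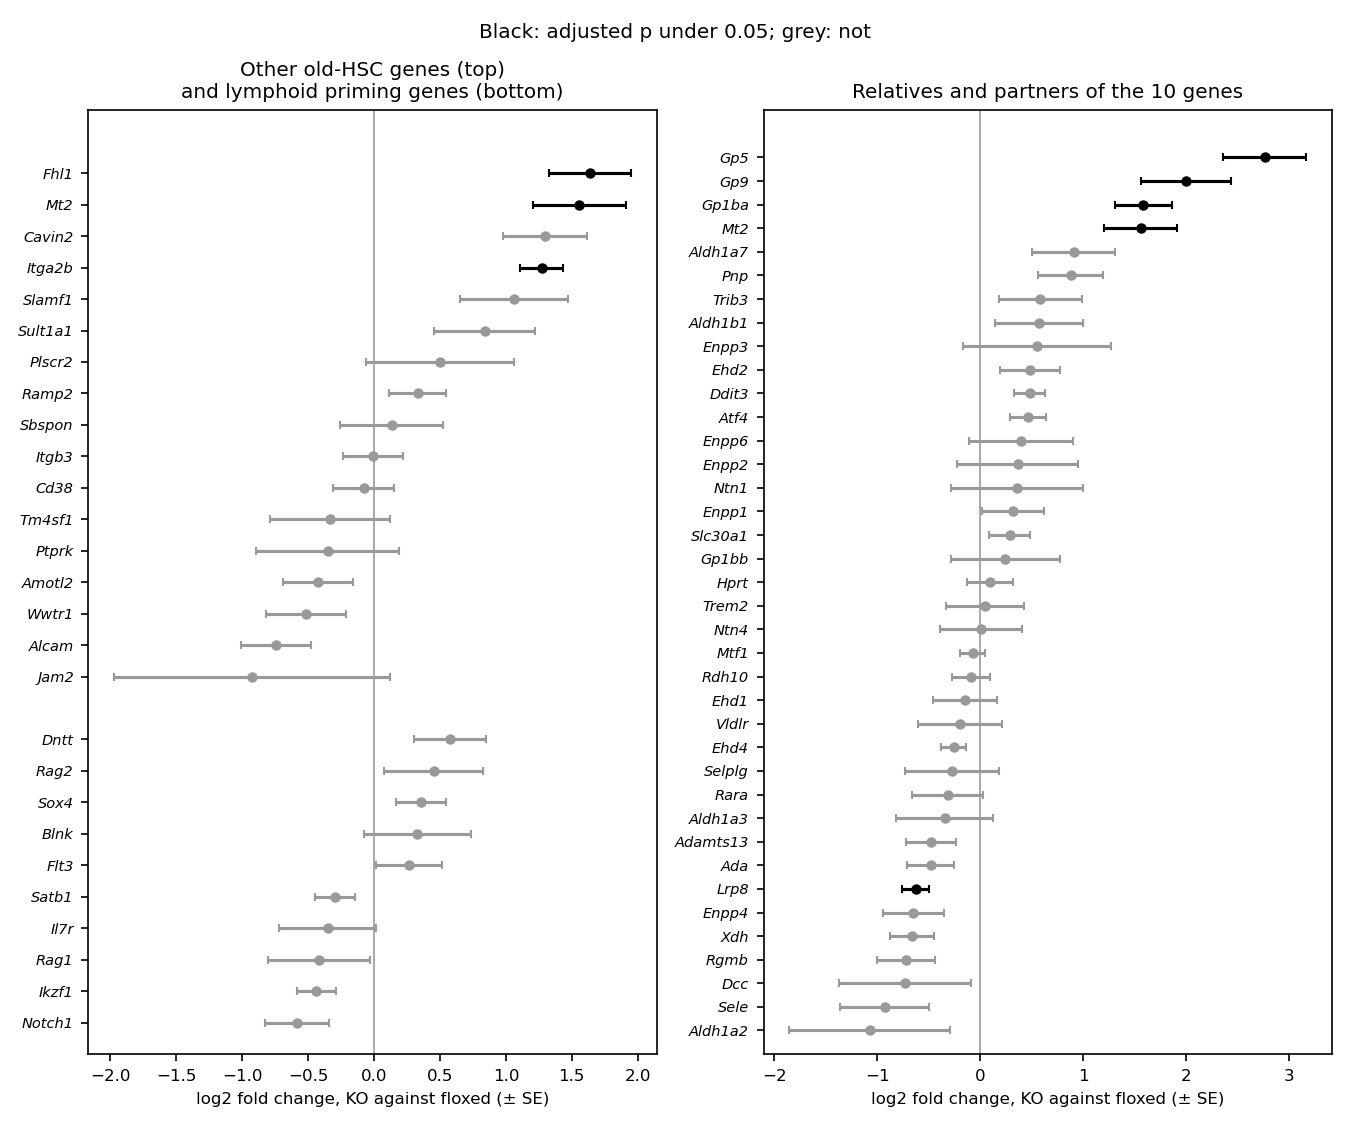
Log2 fold change with standard error, KO against floxed (x axes), for the 17 other old-HSC genes and 10 lymphoid priming genes (left) and 38 of the 40 tested relatives and partners (right). Black marks genes with an adjusted p under 0.05 over 8 libraries, which are 3 on the upper left, 0 on the lower left and 5 on the right, and grey marks those that did not pass.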

How the data were processed

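RNA from cells sorted as LT-HSCs from 4 floxed and 4 KO mice was sequenced, 1 library for each mouse. According to the submitters' processing notes, FastQC, Trim Galore and Bowtie2 were used with GRCm38/mm10. The authors deposited raw counts for 138930 Ensembl transcripts in each library. The counting tool is not given in the sources used here. In the files a transcript's count covers its genomic span with introns. In 132181 of 132252 nested pairs of transcripts of a gene, the wider one had at least 99% of the count of the narrower one. Such pairs do not bear on the strand, and whether reads of both strands were counted was not tested. An Aldh1a1 transcript that the annotation holds only in a later version held fewer counts than the one it encloses there.

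GENCODE M21 gave the gene of each transcript (138884 found), and the count of a gene is that of its transcript with the highest total. Counts were filtered with filterByExpr, scaled by TMM and tested in R 4.3.3 with the quasi-likelihood test of edgeR 4.0.16, with p-values adjusted by Benjamini-Hochberg over 21919 genes, all 8 libraries, no covariate. Log2 CPM use a prior count of 2. Alternatives were DESeq2 1.42.0, limma-voom (limma 3.58.1), RLE scaling, no filter, sums over transcripts, haemoglobin genes or overlapping transcripts left out, numbers 4 and 5 as a term, the replicate block and each library left out. In simulated KO against floxed counts for 21410 genes, 198 of them were raised or lowered by a log2 fold change of 2. The edgeR test recovered 155 with 9 false calls and DESeq2 175 with 56. The simulation set no library apart and had no split by replicate number, so these rates may not hold for the real libraries.

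Replicate numbers come from the labels. Numbers 3, 4 and 5 are in both genotypes, and the same-numbered libraries deviated together (r = 0.37 to 0.58 over genes, 3 pairs), as did other libraries on the same side of the split between numbers 3 and 4 (0.35 to 0.60). Depth ran from 56661356 to 120858975 transcript counts. No pair of libraries of the same genotype agreed within counting error. The 10 members and the lists were chosen with earlier results of these data known. Named genes were the members, Ociad1, up to 4 genes per list with the smallest adjusted p under 0.05 or else the 2 largest changes, and the nearest gene in pattern. Other genes named were chosen after their values were seen, as were the stretches of genes compared. Promoters were found for 7 members. The values of 2 listed genes are not reported here.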

Additional observations from a re-analysis of the deposited data

How the results depend on the processing

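Clu and Enpp5 kept their direction in all alternatives, and Vwf, Aldh1a1, Mt1 and Gda did too. The sign of Neo1, Selp, Ehd3 or Nupr1 differed in 11 of 169 values, and these 4 lay between -0.14 and 0.12 over 8 libraries. Over all genes, 261 met both thresholds (99 higher and 162 lower in KO) and 651 had an adjusted p under 0.05. DESeq2 gave 503 and 2447, with 1 of the lymphoid priming genes. The replicate block gave 44 and 48, with 0 of the other old-HSC genes and 0 of the relatives and partners. Numbers 4 and 5 as a term gave 521 and 4066, with 6 old-HSC, 2 lymphoid priming and 8 relatives and partners. With a library left out, the ranges were 47 to 856 and 59 to 3876 genes, 1 to 5 old-HSC, 0 to 6 lymphoid priming and 0 to 14 relatives and partners, each highest without floxed replicate 3. Limma-voom gave 113 higher and 73 lower past both thresholds. Neo1 could not be fitted on transcripts with no overlap, being below the filter. Counts of 350 for Neo1 and of 11 to 43 per library for the clear stretch of Selp limit what can be seen there.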

Other observations

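The KO libraries were more alike than the floxed libraries for all 10 genes. The SD of log2 CPM was 0.03 to 0.26 among the 4 KO libraries and 0.20 to 1.05 among the 4 floxed libraries, smallest for Enpp5 in both. Over all 21919 genes tested, 70.6% had the smaller SD in KO, with medians of 0.29 in KO and 0.44 in floxed. Without floxed replicate 3, 9 of the 10 genes, all but Aldh1a1, had the smaller SD in KO, against 54.1% of all genes. This was seen after the levels were known and has no test.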
